A study of Caenorhabditis elegans with 6 samples.

Results

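The genes described here are the 9 genes of the GLP-1 Notch stem cell pathway and of meiotic entry in the *C. elegans* germline: *lag-2*, *glp-1*, *lag-1*, *lst-1*, *sygl-1*, *gld-1*, *gld-2*, *gld-3* and *nos-3*. They were chosen by name for their known roles, at a time when earlier results of these data were known. All 9 were found among the 46772 genes counted. RNA was sequenced from dissected gonads of young adults, 12 h after the L4 stage, in wildtype (N2) and in *set-2(bn129)* animals, with 3 libraries of each genotype. *set-2* encodes the histone methyltransferase of the COMPASS complex, and *bn129* is a loss-of-function allele. Mutant animals were homozygotes whose mothers were heterozygous for the allele, and the labels name no transgene or treatment in either group. For each library the gonads of 5 to 7 animals were pooled, and only the portion distal to the elbow was taken. In the intact gonad that portion runs from the niche end through the mitotic germ cells to the meiotic germ cells at the elbow. The labels call the replicates biological without saying whether they came from separate cultures. The p-values therefore weigh the genotype difference only against the spread between these libraries.

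In the germline, the distal tip cell at the end of each gonad arm displays the ligand LAG-2, which binds the Notch receptor GLP-1 on the germ cells beneath it. The freed intracellular part of GLP-1 enters the nucleus, joins the DNA-binding protein LAG-1 and switches on *lst-1* and *sygl-1*, whose products act with the FBF RNA-binding proteins to keep germ cells in the stem cell state. Away from the niche, GLD-1 and NOS-3 repress translation of target mRNAs while GLD-2 and its partner GLD-3 lengthen poly(A) tails, and together these pathways bring germ cells into meiosis. Because much of this control acts on translation, an mRNA level does not give the level of its protein.

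Of the 9 genes, 3 fell in *set-2* gonads. *sygl-1* fell by 46.8%, *gld-2* fell by 30.4% and *gld-1* fell by 14.9%. The receptor *glp-1*, its transcription factor *lag-1*, the other target *lst-1*, and *gld-3* and *nos-3* did not pass the test, and the ligand *lag-2* had too few reads to be tested. A total of 8 of the 9 genes passed the filter on low counts, each with at least 178 counts in every library, so that none of them entered through a single genotype. The 3 genes called of 8 tested have to be read against the whole comparison, in which 41.4% of the 9431 genes tested passed an adjusted p-value of 0.05 in edgeR's quasi-likelihood test, 21.1% of them lower and 20.3% higher, both as shares of the genes tested. The share among these genes is therefore close to that of all genes. When a log2 fold change of at least 0.58 up or down was also required, the limit used in the study, *sygl-1* was the 1 gene of the 8 that qualified, where 15.3% of all genes tested did. With its own DESeq2 comparison the study lists fewer genes at this fold limit, and the reason was not tested. Over the 8 genes the median log2 fold change was -0.02, and over all genes tested it was -0.00090.

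Each library held between 23403396 and 30724547 counts. The label check was the *set-2* transcript itself (WBGene00004782, chromosome III, 4922427 to 4930204), with 149, 161 and 151 CPM in wildtype replicates 1, 2 and 3 and 87.3, 94.1 and 99.2 CPM in *set-2* replicates 1, 2 and 3. CPM are counts scaled to a common library size, with TMM normalization. Ribosomal RNA genes held 13.6% to 14.9% of the counts in wildtype and 8.06% to 10.6% in *set-2* libraries. Genes listed for tissues around the gonad were also compared, and where their reads came from was not tested. All 9 muscle genes tested and all 7 tested of 9 intestine genes listed were lower in *set-2* gonads, with summed levels of 212 to 366 CPM in wildtype against 146 to 164 CPM for muscle, and 247 to 652 against 71.2 to 168 CPM for intestine. Of the wildtype libraries, replicate 1 had the lowest of both sums. The hypodermis genes, of which 2 of 8 were tested and 1 fell, summed to 41.4 to 82.7 CPM in wildtype and 33.5 to 37.0 CPM in *set-2*, and the neuron genes, of which 5 of 8 were tested and 2 fell, to 73.2 to 77.7 and 67.7 to 70.0 CPM. Most of the hypodermis sum came from *col-19*, the gene that fell. Most of the neuron sum came from *snb-1*, which did not pass (-0.08 on the log2 scale, adjusted p in edgeR = 0.16). The neuron genes that fell were *egl-3* (-1.63, adjusted p in edgeR = 7.0e-04) and *ric-4* (-0.80, adjusted p in edgeR = 0.026), while *unc-13* (-0.55) and *unc-119* (0.10) did not pass. The 11 germline genes summed to 3894 to 4246 CPM in wildtype and 3501 to 3942 CPM in *set-2* libraries. In this list *him-3* rose, 4 genes fell and 6 did not pass the test. The 11 oocyte genes summed to 12238 to 12523 CPM in wildtype and 11925 to 12223 CPM in *set-2*, with 3 of them lower and 8 not called. The sperm genes, of which 2 of 9 were tested, summed to 5.04 to 5.69 CPM in wildtype and 3.996 to 5.30 CPM in *set-2*, a sum in which opposite changes offset each other. *spe-9* had 5 to 6 counts in wildtype and 43 to 57 in *set-2* libraries, and *spe-41* fell by 0.94 (adjusted p in edgeR = 0.0028). *spe-9* passed the low count filter only through the *set-2* libraries, where it was high, so its log2 fold change of 3.08 is a description. The genes of the gonadal sheath, of which 5 of 6 were tested and 1 fell, summed to 60.1 to 78.1 CPM in wildtype and 35.7 to 39.0 CPM in *set-2* libraries. Most of this sum came from *inx-8*, with 59.9, 44.6 and 49.1 CPM in wildtype and 22.6, 21.7 and 20.8 CPM in *set-2* replicates 1, 2 and 3. The gene that fell was the innexin gene *inx-8*, at -1.24 on the log2 scale (adjusted p in edgeR = 5.4e-06). Of those that did not pass, *ceh-18* was at -0.71 (adjusted p in edgeR = 0.057) and *acy-4* at -0.29 (adjusted p in edgeR = 0.41), both with 28 counts or fewer in every library. *inx-9* was at -0.19 (adjusted p in edgeR = 0.16) and *lim-7* at 0.46 (adjusted p in edgeR = 0.073).

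The order of the genes by level was set by counts per kilobase of exon, each library scaled to the same sum (TPM). In wildtype gonads the highest was *gld-1*, at 275 ± 11.5 TPM (SD, n = 3), above 96.8% of the genes tested by its mean over all libraries. *glp-1* followed at 101 ± 2.54 TPM and *gld-3* at 99.0 ± 1.63 TPM (SD, n = 3 each), and the libraries of these neighbours overlapped, from 98.3 to 103 TPM for *glp-1* and from 97.2 to 100.5 TPM for *gld-3*. Below them stood *nos-3* at 83.5 ± 4.08 TPM and *lst-1* at 59.1 ± 1.05 TPM, each apart from its neighbours in every wildtype library. *gld-2* had 31.6 ± 1.27 TPM and *lag-1* had 24.4 ± 0.524 TPM. *sygl-1*, at 22.9 ± 5.26 TPM, spread more widely and overlapped *lag-1*. The ligand *lag-2* was last, at 0.0889 ± 0.0532 TPM. In *set-2* gonads *gld-2* (22.8 to 24.7 TPM) stood below *lag-1* (25.6 to 27.7 TPM) in every library, the reverse of wildtype, while the rest of the order was the same. Levels in TPM are compared here within a genotype, since ribosomal RNA took a different share of the libraries.

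**Figure D1:**
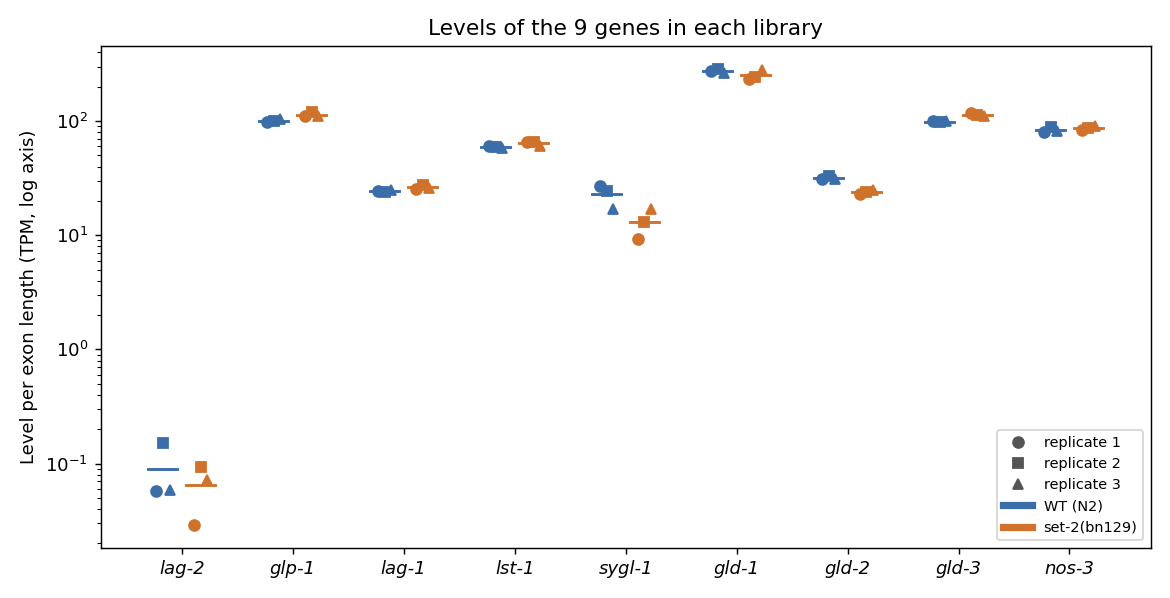
Level of each of the 9 genes per exon length (TPM, log axis) in every library, with wildtype in blue, set-2(bn129) in orange, a marker shape for each replicate and a bar at the mean of 3 libraries. *gld-1* is the highest and *lag-2* lies far below the others in both genotypes, while *gld-2* and *lag-1* change places.

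The ligand *lag-2* (WBGene00002246, chromosome V, 3188343 to 3190115) had 2, 5 and 2 counts in wildtype replicates 1, 2 and 3 and 1, 3 and 3 counts in *set-2* replicates 1, 2 and 3. This sums to 9 counts in wildtype and 7 in *set-2* libraries, too few for the gene to be tested. *lag-2* is made by the distal tip cell, a somatic cell. Of 6 further genes listed for that cell, the transcription factor genes *hlh-12* and *ceh-22* had between 0 and 3 counts in any library, and the summed level of the list was 346 to 358 CPM in wildtype and 309 to 318 CPM in *set-2*, most of it from *unc-40*, which other cells use as well. The other listed genes, which are also used outside that cell, were counted: *gon-1* had 59 to 88 counts in a library, *unc-5* 30 to 43, and *ina-1* 665 to 1022. Of the 4 tested, *ina-1* rose by 0.23 (adjusted p in edgeR = 0.015), *unc-40* fell by 0.20 (adjusted p in edgeR = 0.0012), and *gon-1* and *unc-5* did not pass.

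The receptor gene *glp-1* (WBGene00001609, chromosome III, 9092241 to 9099698) had 406, 414 and 423 CPM in wildtype replicates 1, 2 and 3 and 420, 449 and 431 CPM in *set-2* replicates 1, 2 and 3. The genotypes overlapped. The log2 fold change was 0.06 (standard error, SE, 0.039, adjusted p in edgeR = 0.21), with a 95% confidence interval from -0.02 to 0.15. *lag-1* (WBGene00002245, chromosome IV, 6095407 to 6110655), encoding the transcription factor that GLP-1 works through, had 110, 106 and 110 CPM in wildtype and 104, 112 and 110 CPM in *set-2* replicates 1, 2 and 3. Its log2 fold change was 0.00073 (95% confidence interval -0.09 to 0.09, adjusted p in edgeR = 0.99). For both genes a change of 0.58 lay outside the interval.

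The genes that GLP-1 signalling switches on, *lst-1* and *sygl-1*, differed in their values. *lst-1* (WBGene00003083, chromosome I, 10588501 to 10590465) had 80.2, 77.6 and 76.7 CPM in wildtype replicates 1, 2 and 3 and 79.7, 79.4 and 75.5 CPM in *set-2* replicates 1, 2 and 3. Its libraries overlapped, and the log2 fold change was 0.00043 (95% confidence interval -0.09 to 0.09, adjusted p in edgeR = 0.99). *sygl-1* (WBGene00012104, chromosome I, 12483809 to 12486235) had 21.7, 19.5 and 13.5 CPM in wildtype replicates 1, 2 and 3 and 6.71, 9.39 and 12.8 CPM in *set-2* replicates 1, 2 and 3. In CPM every *set-2* library lay below every wildtype library, but replicates 3 of the genotypes nearly met. Of all genes tested, 52.9% had no overlap in 1 direction or the other. In TPM, which the ribosomal RNA share affects, *set-2* replicate 3 (17.035) lay just above wildtype replicate 3 (17.014). The log2 fold change was -0.91 (SE 0.21, 95% confidence interval -1.38 to -0.44, adjusted p in edgeR = 0.0059). It stayed past both thresholds whichever library was left out, between -1.18 without *set-2(bn129)* replicate 3 and -0.70 without *set-2(bn129)* replicate 1. *sygl-1* was also the most variable of the 8 genes, with a biological coefficient of variation in edgeR of 18.2%, against 3.49% to 6.29% for the other 7 genes and a median of 6.76% over all genes tested. Among the wildtype libraries, replicate 1 had the highest *sygl-1* level and the lowest muscle and intestine sums, although these sums were lower still in every *set-2* library, and the part of either in the result was not tested. In such bulk samples, fewer cells of a type and less RNA per cell cannot be told apart.

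The ratio of *sygl-1* to *lst-1* counts does not depend on the scaling of libraries. It was 0.271, 0.251 and 0.176 in wildtype replicates 1, 2 and 3 and 0.0842, 0.118 and 0.170 in *set-2* replicates 1, 2 and 3, without overlap. An exact permutation test, two-sided, gave p = 0.1, the smallest that 3 libraries against 3 allow, and 0.13 after adjustment over the 4 ratios examined, which were chosen after the values were seen. Since the pair was picked for its difference, this is a description.

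**Figure D2:**
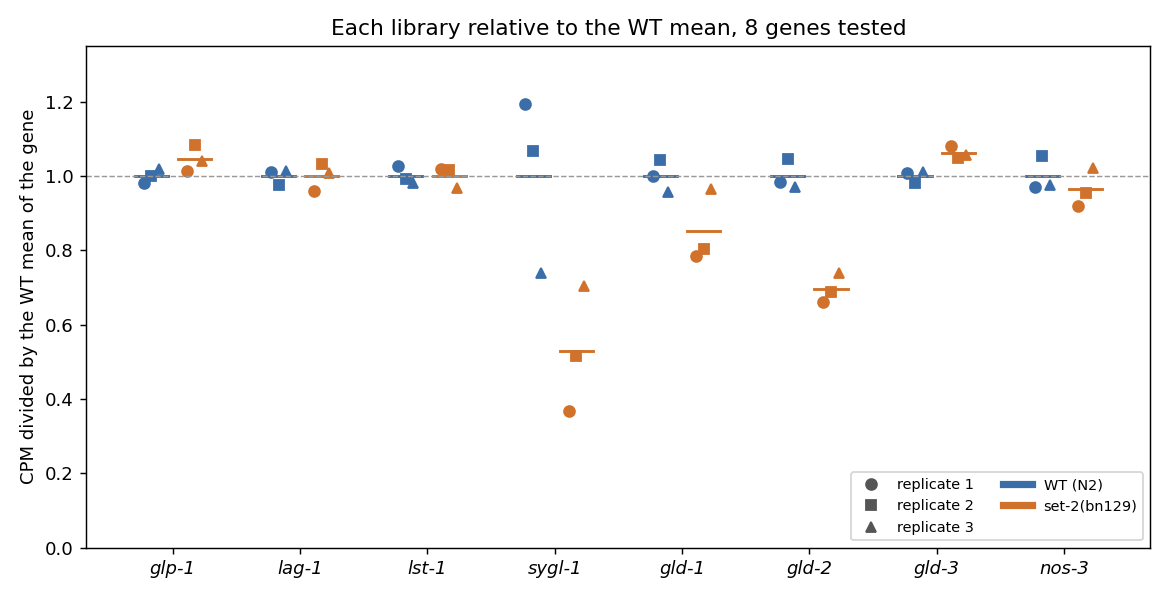
CPM of each library divided by the wildtype mean of the gene (linear axis from 0), for the 8 genes tested, with wildtype in blue, set-2(bn129) in orange, marker shapes for the replicates and a bar at the mean of 3 libraries. *sygl-1* spreads most within each genotype, all *set-2* libraries of *gld-2* lie well below wildtype, and *set-2* replicate 3 of *gld-1* reaches the wildtype range.

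Of the genes that bring germ cells into meiosis, *gld-2* showed the most clearly separated fall. It encodes the catalytic subunit of a cytoplasmic poly(A) polymerase. *gld-2* (WBGene00001596, chromosome I, 6369748 to 6386194) had 186, 197 and 183 CPM in wildtype replicates 1, 2 and 3 and 125, 130 and 139 CPM in *set-2* replicates 1, 2 and 3. All *set-2* libraries were below all wildtype libraries. The log2 fold change was -0.52 (SE 0.047, 95% confidence interval -0.63 to -0.42, adjusted p in edgeR = 1.5e-05), just short of the fold threshold, and it lay between -0.57 and -0.49 when any 1 library was left out. *gld-3* (WBGene00001597, chromosome II, 7132643 to 7137522), encoding the RNA-binding partner of GLD-2, had 364, 354 and 365 CPM in wildtype and 390, 378 and 382 CPM in *set-2* replicates 1, 2 and 3. Here every *set-2* library was above every wildtype library, as happened in 1 direction or the other for 52.9% of all genes tested. The log2 fold change of 0.09 (SE 0.036, 95% confidence interval 0.0080 to 0.16) did not pass after adjustment (adjusted p in edgeR = 0.073), although it did with upper quartile normalization (adjusted p in edgeR = 0.038). The ratio of *gld-2* to *gld-3* counts was 0.510, 0.557 and 0.502 in wildtype replicates 1, 2 and 3 and 0.320, 0.343 and 0.365 in *set-2* replicates 1, 2 and 3 (exact permutation test, two-sided, p = 0.1, adjusted 0.13). Again this is the smallest p-value the test allows, for a ratio chosen after its values were seen, and it is a description.

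*gld-1* (WBGene00001595, chromosome I, 7695681 to 7698222), encoding a translational repressor of the STAR family, had 580, 605 and 554 CPM in wildtype replicates 1, 2 and 3 and 455, 465 and 559 CPM in *set-2* replicates 1, 2 and 3. The genotypes overlapped, since *set-2* replicate 3 lay above wildtype replicate 3. The log2 fold change was -0.23 (SE 0.070, 95% confidence interval -0.39 to -0.08, adjusted p in edgeR = 0.021). This call rested on single libraries. The adjusted p-value was 0.079 without wildtype replicate 2, 0.089 without *set-2(bn129)* replicate 1 and 0.093 without *set-2(bn129)* replicate 2, which leaves 2 of the 9 genes called in those fits, and it was 6.4e-04 without *set-2(bn129)* replicate 3. *nos-3* (WBGene00003785, chromosome II, 9746316 to 9750462), encoding a Nanos-related protein that acts with GLD-1, had 264, 287 and 266 CPM in wildtype and 251, 260.2 and 278 CPM in *set-2* replicates 1, 2 and 3. These overlapped, at a log2 difference of -0.05 (95% confidence interval -0.16 to 0.06, adjusted p in edgeR = 0.44).

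**Figure D3:**
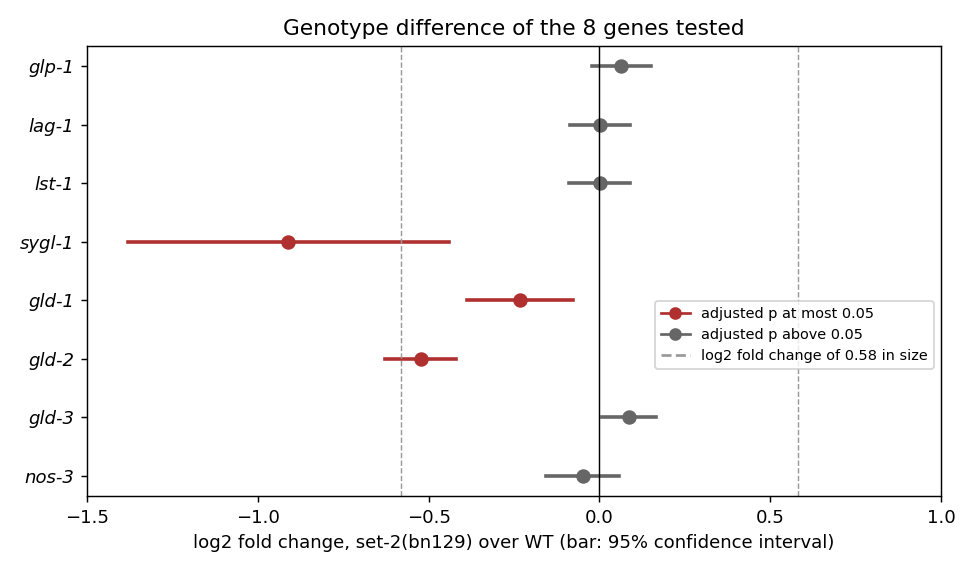
Log2 fold change of *set-2(bn129)* over wildtype for the 8 genes tested, with bars for the 95% confidence interval, red where the edgeR adjusted p-value is at most 0.05, and dashed lines at 0.58 in either direction. The intervals of 6 genes lie wholly between the dashed lines, and those of *sygl-1* and *gld-2* reach past the lower line.

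Positions are those of WBcel235 and the counts are over exons. Of the 9 genes, 4 (*lst-1*, *sygl-1*, *gld-1* and *gld-2*) are on chromosome I, and all 3 that fell are among them. Of the 1852 genes tested on that chromosome, 19.3% fell, against 21.1% of all genes tested, and nothing is read from the position of these 3 genes. Exons of *lag-2*, *lst-1*, *sygl-1*, *gld-1* and *gld-3* overlap those of no other annotated gene. *glp-1*, *gld-2* and *nos-3* share 18, 46 and 51 exon bases with a gene on the opposite strand, and *lag-1* shares 293 of its 4695 exon bases with 3 such genes. Since the strand setting of the counting is not stated, reads of *lag-1* and its antisense neighbours cannot be told apart over that stretch.

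Other parts of the Notch machinery were followed in a list of 27 genes, of which 20 were tested. In the list, 6 genes fell, 2 rose and 12 did not pass the test, or 8 of 20 called against 41.4% of all genes tested, with a median log2 fold change of -0.02. *apx-1*, encoding another ligand of the family of LAG-2, had 39.3, 40.9 and 34.1 CPM in wildtype replicates 1, 2 and 3 and 20.9, 23.9 and 24.7 CPM in *set-2* replicates 1, 2 and 3. It fell by 0.72 on the log2 scale (SE 0.083, adjusted p in edgeR = 8.5e-05), past both thresholds. *sup-17*, encoding a protease that cleaves the receptor, had 249, 234.97 and 220.3 CPM in wildtype and 187, 197.5 and 203 CPM in *set-2* gonads, and fell by 0.26 (SE 0.050, adjusted p in edgeR = 0.0016). *sel-8*, encoding the coactivator that joins GLP-1 and LAG-1, fell by 0.19 (adjusted p in edgeR = 0.011) and the kinase gene *sel-5* by 0.12 (adjusted p in edgeR = 0.019). No gene of the gamma-secretase that releases the intracellular part of the receptor passed the test except the presenilin gene *hop-1*, at -0.18 (adjusted p in edgeR = 0.039). The other presenilin gene, *sel-12*, was at 0.02 (adjusted p in edgeR = 0.91).

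The further misregulated genes of this list were close to silent. *dsl-2*, which encodes a member of the ligand family, had 32, 9 and 13 counts in wildtype replicates 1, 2 and 3 and 46, 44 and 49 counts in *set-2* replicates 1, 2 and 3, which is 1.17 higher on the log2 scale (adjusted p in edgeR = 0.024). Single libraries moved this value, to 1.87 without wildtype replicate 1 and 0.86 without wildtype replicate 2. *dsl-3*, of the same family, had 13 to 15 counts in wildtype and 24 to 36 in *set-2* libraries (0.85, adjusted p in edgeR = 0.024). *osm-7*, encoding a secreted Notch co-ligand, had 12 to 19 counts in wildtype and 4 to 12 in *set-2* libraries (-1.12, adjusted p in edgeR = 0.041). Each of these calls was lost in 4 or more of the fits that left out 1 library, and the number of genes called in the list was 2 without wildtype replicate 2 and 5 without wildtype replicate 3 or any 1 of the *set-2* libraries. *dsl-2* passed the low count filter through the *set-2* libraries and *osm-7* through wildtype, in each case the higher group. Their calls are therefore a description. With 10 counts required in every library neither was tested, and 6 genes of the list were called. The receptor paralog *lin-12* had 61, 63 and 42 counts in wildtype and 40, 38 and 57 counts in *set-2* replicates 1, 2 and 3, a difference that did not pass (-0.50, adjusted p in edgeR = 0.095) except without wildtype replicate 3 (adjusted p in edgeR = 0.035). The 7 genes not tested (*arg-1*, *dsl-1*, *dsl-4*, *dsl-5*, *dsl-6*, *dsl-7* and *sel-7*) had 0 to 2 counts in every library.

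Among 30 genes that act beside the GLD genes in stem cell maintenance and meiotic entry, 29 were matched and 28 tested. Of these, 11 fell, 4 rose and 13 did not pass the test, or 53.6% called against 41.4% of all genes tested (lower, 11 of 28 against 21.1%), with a median log2 fold change of -0.11. *atx-2*, the ataxin homologue that promotes germ cell proliferation, was the 1 misregulated gene. It had 188, 196 and 171 CPM in wildtype replicates 1, 2 and 3 and 105, 116 and 133 CPM in *set-2* replicates 1, 2 and 3, a fall of 0.65 on the log2 scale (SE 0.076, adjusted p in edgeR = 8.9e-05). *gld-4*, encoding the other cytoplasmic poly(A) polymerase of meiotic entry, had 238, 247 and 230 CPM in wildtype and 158, 177 and 189 CPM in *set-2* replicates 1, 2 and 3. It fell by 0.45 (SE 0.058, adjusted p in edgeR = 1.5e-04). The ratio of *gld-2* to *gld-4* counts overlapped between genotypes, at 0.779 to 0.800 in wildtype and 0.733 to 0.792 in *set-2* libraries.

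The partner genes of these polymerases did not all move with them. *gls-1*, encoding a partner of GLD-4 and GLD-3, fell by 0.22 (adjusted p in edgeR = 0.0015), while *rnp-8*, encoding the other partner of GLD-2, was at 0.04 (adjusted p in edgeR = 0.46). Of the Nanos relatives of *nos-3*, *nos-1* fell by 0.22 (adjusted p in edgeR = 0.0028). *nos-2* rose, from 63.5, 61.5 and 63.9 CPM in wildtype to 83.5, 85.6 and 74.5 CPM in *set-2* replicates 1, 2 and 3, or 0.37 on the log2 scale (SE 0.053, adjusted p in edgeR = 3.4e-04). *skr-1*, which encodes a subunit of ubiquitin ligases, fell by 0.22 (adjusted p in edgeR = 7.1e-04).

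The FBF proteins bind and repress the *gld-1* mRNA. *fbf-1* had 67.3, 71.3 and 65.1 CPM in wildtype and 61.6, 60.6 and 63.2 CPM in *set-2* replicates 1, 2 and 3, and fell by 0.14 (adjusted p in edgeR = 0.033). This call was lost without any of 4 libraries, wildtype replicate 1 or 2 and *set-2(bn129)* replicate 1 or 2 (0.058 to 0.15), and with DESeq2's Wald test (0.10), the replicate block (0.063) or no low count filter (0.11). *fbf-2* was at 0.02 (adjusted p in edgeR = 0.70) with overlapping libraries. The *fbf-1* and *fbf-2* genes are nearly identical copies, and reads that match both could be lost, since alignments of low mapping quality were removed. Their count ratio was 0.833 to 0.898 in wildtype and 0.766 to 0.801 in *set-2* libraries (exact permutation test, two-sided, p = 0.1, adjusted 0.13). This p-value too is the smallest the test allows, and the ratio is given as a description.

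A list of 18 genes whose mRNAs GLD-1 is known to bind was also examined, and all 18 were tested. In this list 6 genes fell, 1 rose and 11 did not pass, or 38.9% called, close to the 41.4% of all genes tested, with a median log2 fold change of -0.01, and none was misregulated, the extremes being -0.28 and 0.12. *lin-45*, encoding the Raf kinase of the germline, fell by 0.27 (adjusted p in edgeR = 0.0023), and *mes-3*, encoding a chromatin regulator, fell by 0.18 (adjusted p in edgeR = 0.0031). *oma-2*, encoding an oocyte maturation factor, fell by 0.20 (adjusted p in edgeR = 0.0045), while its paralog *oma-1* was at 0.09 (adjusted p in edgeR = 0.090). *puf-7* fell by 0.28 (adjusted p in edgeR = 0.0056), although reads that match both *puf-7* and its near copy *puf-6* could be lost. The yolk receptor gene *rme-2*, a standard target of GLD-1 repression, was at 0.07 (adjusted p in edgeR = 0.19). The number of genes called in this list was 4 without wildtype replicate 2 or *set-2(bn129)* replicate 1.

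**Figure D4:**
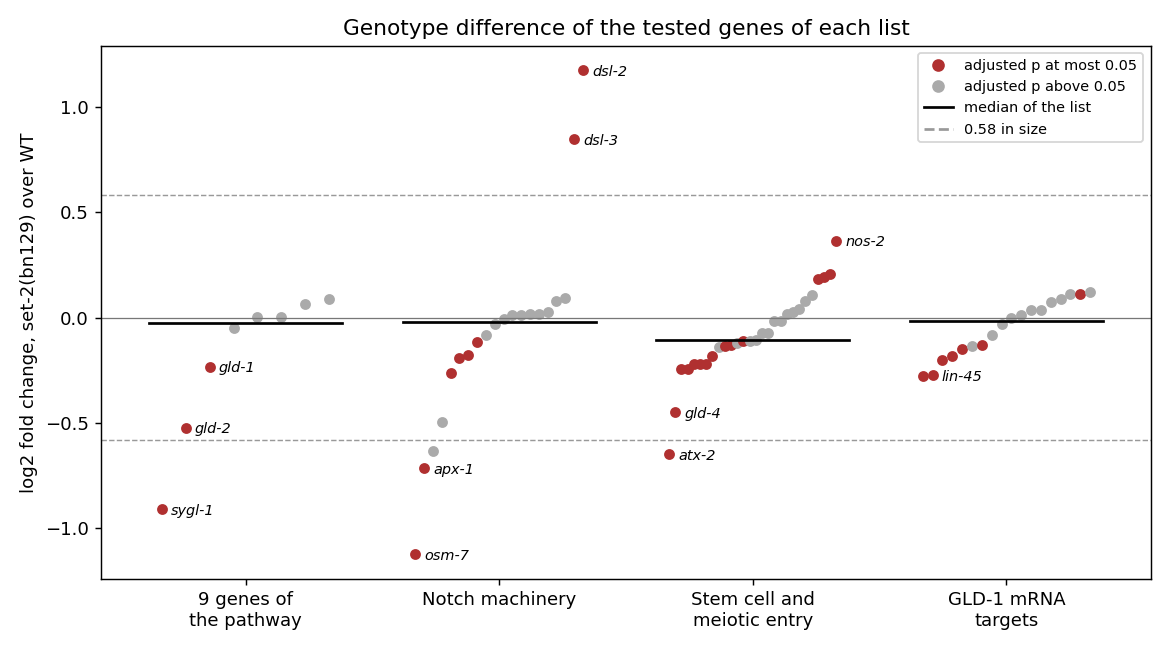
Log2 fold change of *set-2(bn129)* over wildtype for every tested gene of the pathway and of the lists of Notch machinery, stem cell and meiotic entry genes and GLD-1 mRNA targets, each gene a point in order of its value, red where the edgeR adjusted p-value is at most 0.05, with a bar at the median and dashed lines at 0.58 in either direction. The medians lie between -0.11 and -0.01, and of the red points *sygl-1*, *apx-1*, *osm-7* and *atx-2* lie below the lower line.

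Genes with the pattern most like that of *glp-1* over the 6 libraries, by Pearson's correlation of log2 CPM, were *ints-1* (r = 0.992), *tftc-5* (r = 0.992) and *F58A6.1* (r = 0.983). For *gld-1* they were *sqst-1* (r = 0.993), *sqd-1* (r = 0.984) and *zhp-2* (r = 0.983). These are the highest values among 9431 genes over only 6 libraries that share their scaling, and are given as a description.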

How the data were processed

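RNA from dissected gonads was sequenced as single reads of 50 bases from 3 wildtype and 3 *set-2(bn129)* samples, grouped by their titles. The labels call the RNA polyadenylated, while their protocol and the study's methods describe libraries depleted of ribosomal RNA. The authors made the deposited counts per gene by mapping to the release WS254 with STAR 2.4.1d, removing alignments with a mapping quality under 10 with SAMtools 0.1.19, and counting with htseq-count 0.7.2 (its mode and strand setting are not given in the sources used here). Removal of such alignments lowers counts of near-identical genes. A further deposited table holds the gene numbers of the authors' own comparison and was not used.

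Genotypes were compared with edgeR 4.0.16 (R 4.3.3): filterByExpr, TMM, estimateDisp, glmQLFit and glmQLFTest, with Benjamini-Hochberg adjustment over 9431 genes. A gene is called where its adjusted p-value does not exceed 0.05, and misregulated where its log2 fold change is also 0.58 or more up or down. Fold changes include edgeR's small prior count, and intervals come from the coefficient without it. Positions, exon lengths and overlaps come from the Ensembl annotation of WBcel235, not WS254. Chi-square values between replicates, divided by their degrees of freedom, were 9.15 to 28.9, so that all 6 libraries were taken as separate. The fits were also run on simulated data with large changes in a small share of the genes, a setting unlike this comparison, and nothing is read from it here. Intervals cover the error of the fit alone.

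The 9 genes, the lists and the naming rule were chosen with earlier results of these data known. All 9 genes are named, with *set-2*, *lin-12*, *fbf-1* and *fbf-2*, every misregulated gene and the 4 genes called with the smallest adjusted p-values of each pathway list, and the 3 genes most like *glp-1* and *gld-1*. Other genes named (*hop-1*, *sel-12*, *gls-1*, *rnp-8*, *nos-1*, *oma-1*, *rme-2*, *him-3*, *hlh-12*, *ceh-22*, *unc-40*, *gon-1*, *unc-5*, *ina-1*, *spe-9*, *spe-41*, *inx-8*, *lim-7*, *ceh-18*, *acy-4*, *inx-9*, *col-19*, *snb-1*, *egl-3*, *ric-4*, *unc-13*, *unc-119* and the genes not tested) and in the closing section were picked with their values known. The fit was repeated with upper quartile normalization, DESeq2's size factors, 1 count in any library or 10 counts in every library as filters, DESeq2 1.42.0, a replicate block, each library left out, and the fold threshold. 1 listed gene, *ntl-1*, was not matched and was not analysed here.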

Additional observations from a re-analysis of the deposited data

How the results depend on the processing

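With the log2 fold threshold of 0.58 added, the genes called went from 3908 to 1447, and those of the pathway from 3 to 1. With DESeq2's Wald test, 5 Notch machinery genes were called in place of 8. When 1 library was left out, the Notch machinery list had 2 to 7 genes called, the GLD-1 targets 4 to 9, the stem cell and meiotic entry list 12 to 16 and the 9 genes 2 to 3, and the log2 fold change of *gld-1* was -0.33 to -0.18. *gld-3* passed with upper quartile normalization (0.10). The direction of the near-zero values of *lag-1* and *lst-1* was not fixed: with DESeq2's size factors they were -0.0019 and -0.0023, with 10 counts required in every library -0.00053 and -0.00085, and with 1 library left out -0.021 to 0.032 and -0.016 to 0.027. That of *fbf-2* was -0.024 to 0.057 with 1 library left out. The cause was not tested. *sygl-1* and *gld-2* kept their direction and their call under each alternative fit run, except that the fold threshold leaves out *gld-2*.

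Deviations of same-numbered replicates from the genotype means correlated at -0.086, -0.048 and -0.17 across genes, and no library correlated best with its own number. These values show no pairing by number, but so few libraries cannot exclude that same-numbered samples were handled together. With a replicate block, 3458 genes were called and the 9 genes still had 3, 12 of the stem cell and meiotic entry genes were called in place of 15, and *dsl-3*, *osm-7* and *fbf-1* were not called. Depth limits what can be said of *lag-2*, at 5 counts or fewer in every library.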

Other observations

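The genes that follow are single cases, picked after their values were seen. In the germline list, *car-1* and *mex-5* fell past both thresholds, *deps-1* and *pgl-3* fell by less, *him-3* rose, and *pgl-1*, *glh-1*, *glh-2*, *htp-3*, *syp-1* and *rec-8* did not pass. *car-1*, encoding an RNA-binding protein of germline granules, had 740, 767 and 670 CPM in wildtype replicates 1, 2 and 3 and 396, 426 and 585 CPM in *set-2* replicates 1, 2 and 3, and fell by 0.63 on the log2 scale (adjusted p in edgeR = 0.0014). *mex-5*, encoding a zinc finger RNA-binding protein, had 357, 383 and 342 CPM in wildtype and 215, 233 and 256 CPM in *set-2* gonads, and fell by 0.62 (adjusted p in edgeR = 3.0e-05). *larp-1*, encoding a La-related RNA-binding protein, fell by 0.24 (adjusted p in edgeR = 0.0038), in a list in which *nos-2*, *ego-1*, *prp-17* and *him-17* rose. By contrast *him-3*, encoding a meiotic chromosome axis protein, rose from 131, 128 and 133 CPM in wildtype to 174, 160 and 179 CPM in *set-2* gonads, by 0.39 on the log2 scale (adjusted p in edgeR = 7.8e-05).

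In *sygl-1*, *gld-1*, *gld-2*, *gld-4*, *atx-2*, *car-1*, *mex-5* and *larp-1*, the *set-2* library closest to wildtype was replicate 3. Over the 1993 genes called lower, replicate 3 was the highest *set-2* library for 40.9%, replicate 1 for 30.7% and replicate 2 for 28.4%, against 32.9%, 35.2% and 31.9% of all genes tested. *set-2* replicate 3 also had the largest total count and, at 10.6%, the *set-2* share of ribosomal RNA nearest to wildtype. The part of these differences in the results was not tested.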
